A study of Mus musculus with 6 samples.

Results

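The genes described here encode the machinery that licenses replication origins and copies DNA at the fork. The 44 genes were chosen by name, from the origin recognition complex to DNA ligase, out of the 49993 genes of the deposited count table. The rule uses no measured value, but earlier results of these data were known when the genes were chosen. RNA was sequenced from mouse blastocysts that had developed in the female tract (in vivo group, 3 libraries) or in culture (in vitro group, 3 libraries), in a series whose title concerns Sirt6, NAD+ and telomere shortening. Females of both groups were superovulated with 10 IU of pregnant mare serum gonadotrophin followed 48 h later by 10 IU of human chorionic gonadotrophin (hCG), and then mated naturally, so the controls carry the hormone treatment too. Blastocysts of the in vivo group were taken by flushing the uterus at day 3.5. Zygotes for the in vitro group had been fertilized in vivo, were freed of cumulus cells with hyaluronidase 19 to 21 h after hCG, and grew to blastocysts in KSOM medium at 37 °C under 5% CO2. Blastocysts of both groups were picked by stage and morphology, which limits what either group represents, and the sources used here give neither the strain nor the age of the cultured ones when frozen. The labels disagree on the material: the sample source is the inner cell mass, the tissue is blastocysts and the cell type is given as embryonic stem cell. Whether libraries of one group had different mothers is stated by no label, so p-values measure only the spread between these samples, which may be partly technical.

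Replication is licensed in G1 phase, when the origin recognition complex (ORC) and Cdc6 hold an origin and Cdt1 brings in the ring-shaped MCM helicase. Geminin, the product of Gmnn, binds Cdt1 and blocks a second round of licensing until mitosis is over. In S phase the kinase Cdc7 with Dbf4 helps convert the loaded MCM ring into the active helicase with Cdc45 and the GINS complex, and polymerases then copy both strands on the sliding clamp PCNA. Cells of the early embryo divide with short G1 phases, and many of these genes are known targets of E2F transcription factors.

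Library totals ran from 6918288 to 17643429 counts. Ribosomal RNA differed, with Rn18s-rs5 at 16.7% and 22.2% of all counts in in vivo replicates 1 and 2 but at 35.8% to 41.7% in the other 4 libraries. The libraries of a group were not alike: across all genes, in vivo replicate 3 had Spearman correlations of 0.786 and 0.793 with in vivo replicates 1 and 2, which had 0.942 with each other, and in vitro replicates 1 and 3 had 0.789. Over the 44 genes alone in vivo replicate 3 was the least like the rest, with Pearson correlations of log2 values of 0.554 to 0.686 with the other 5 libraries, against 0.891 between in vivo replicates 1 and 2. Trophectoderm markers (8 genes, Cdx2 and Krt8 among them) summed to 600 to 1217 CPM (counts scaled to the size of the library) in vivo and 908 to 1596 CPM in vitro, all 8 with counts, although the source label names the inner cell mass. Markers of primitive endoderm (6 genes) summed to 184 to 323 CPM in vivo, against 342 to 672 in vitro, without overlap between groups, and 6 of 6 had a positive log2 fold change. Epiblast markers (7 genes) summed to 526 to 649 CPM in vivo, against 398 to 889 in vitro. Log2 fold changes were positive for 7 of the 8 trophectoderm markers and for 2 of the 7 epiblast markers. Markers of cumulus and granulosa cells summed to at most 1.70 CPM (3 of 6 at 0 in all libraries), of blood to at most 3.22 CPM (4 of 6 at 0) and of oocytes to at most 5.95 CPM. Markers of uterine and oviduct epithelium, mainly Muc1, summed to 5.61 to 15.5 CPM in vivo, against 0.131 to 3.82 in vitro (2 of 5 at 0). The part of these marker differences in the results was not tested, and in bulk RNA fewer cells of a type and less RNA per cell cannot be told apart.

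All 44 genes had counts in every library. The lowest count was 14, for Pole2 in in vitro replicate 1, and each gene passed the filter on low counts. CPM values here are counts divided by library totals scaled by the trimmed mean of M values (TMM), and RPKM values are these CPM per kilobase of the gene length in the file, used when genes are compared with each other. Summed over the 44 genes, expression was 2055, 1663 and 1859 CPM in vivo, against 2105, 1973 and 2029 in vitro, so the ranges overlapped. By mean RPKM over the 6 libraries, without counts of pseudogenes, Gmnn was highest at 71.3, followed by Pcna (58.6), Cdt1 (47.5) and Orc6 (43.7). Of the summed counts of gene and pseudogene, described below, the pseudogene held 49.0% to 68.4% for Pcna and 21.6% to 63.7% for Rpa3. The places of Pcna and Rpa3, and so which gene is highest, are therefore uncertain. Cdc45, the helicase partner, was lowest at 1.97, followed by Pole2 (2.93), Pola1 (2.99) and Orc1 (3.16). The deposited coordinates place Cdc45 on 2 sequences of the genome build, so its length, and with it this rank, is uncertain. By mean CPM, Pole2 (8.19 in vivo and 5.61 in vitro) was below Cdc45 (11.6 and 7.10). The median gene of the 44 had 14.8 RPKM. The gene length in the file may differ from that of the RNA present, and ranks and ratios by RPKM depend on it.

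**Figure D1:**
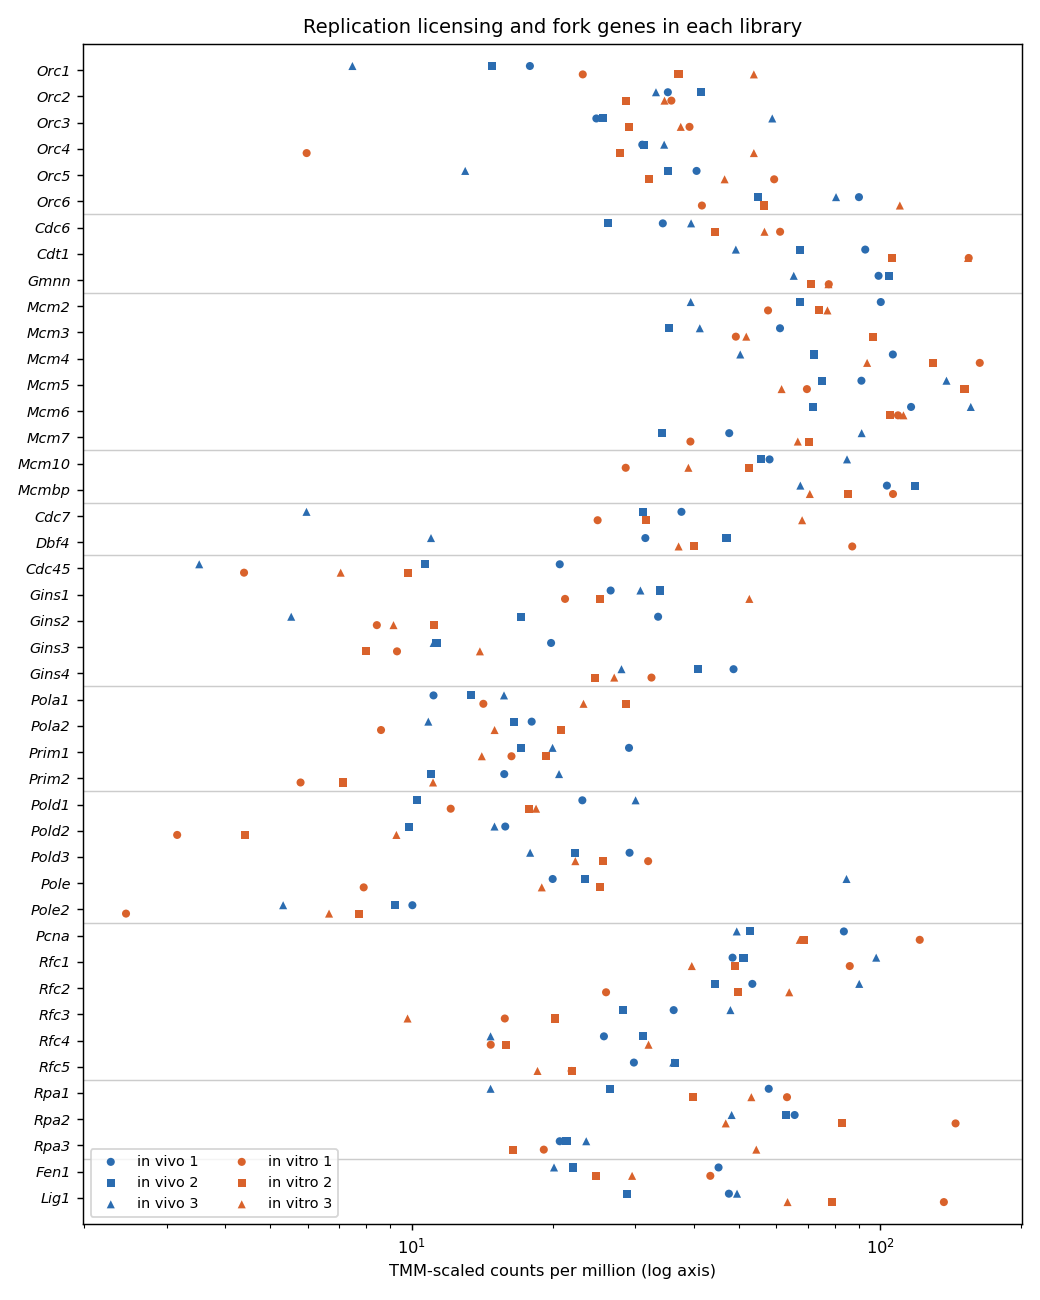
TMM-scaled CPM (log axis) of the 44 replication genes, grouped by role from ORC at the top to ligase at the bottom, with 1 point per library (blue in vivo, orange in vitro; circle, square and triangle for replicates 1, 2 and 3). Most rows show both colours mixed, whereas Orc1, Cdc6, Cdt1 and Lig1 have all orange points to the right and Mcm10, Pold2, Rfc3 and Rfc5 have all orange points to the left.

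None of the 44 genes passed the test between the groups. The quasi-likelihood test of edgeR, adjusted by Benjamini-Hochberg over the 14301 genes tested, called 0 of the 44, against a background of 0% of all genes. Without a filter on low counts edgeR also called 0 of the 44, against 1.4% of all genes. With the filter, 4 of the 44 had an unadjusted p below 0.05 (Orc1, Cdt1 and Lig1 with higher means in vitro, Rfc3 with a lower mean), as had 10.2% of all genes tested, 5.11% higher and 5.08% lower. DESeq2 called 0 of the 44 where it called 2.81% of the genes with an adjusted p, and limma-voom called 0 where it called 0.713%. The lowest adjusted p among the 44 genes was 0.409, for Orc1, by edgeR, and over all fits run the lowest for any of them lay between 0.104 and 0.869.

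Groups that did not overlap were also about as frequent as elsewhere. In 4 of the 44 genes every in vitro library lay above every in vivo library (Orc1, Cdc6, Cdt1 and Lig1), where 9.27% of all genes tested did. In 4 genes every in vitro library lay below (Mcm10, Pold2, Rfc3 and Rfc5), where 10% did. The median log2 fold change (in vitro over in vivo) was −0.09 over the 44 genes and −0.01 over all genes tested, and 19 genes had a positive and 25 a negative value, where 50.2% of all genes tested were negative. Scaling by library totals alone shifted the median of all genes to −0.31 and that of the 44 genes to −0.38. Under it 0 of the 44 genes lay apart above, against 5.16% of all genes, and 7 (15.9%) lay apart below, against 11.0% of all genes. Of the 44 values 14 were then positive and 30 negative. Without in vivo replicate 1, 7 of the 44 (15.9%) had an unadjusted p below 0.05, against 7.25% of all genes. The number was 2 (4.55%) without in vivo replicate 2, against 5.61% of all genes, and also 2 with in vitro replicate 1 left out, against 6.95%. Without in vivo replicate 3 it was 3 (6.82%, against 14.2% of all genes), and the log2 fold changes were 1.22 for Orc1, 0.79 for Cdt1, 1.29 for Lig1 and −1.07 for Rfc3. The median turned to 0.04 without in vitro replicate 1. Over 18 fits, 13 genes kept a positive and 15 a negative value, and 16 changed sign. These fits share most of their data, and how many of all genes tested kept their sign was not counted. For those 16 no fold change is printed in the text.

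**Figure D2:**
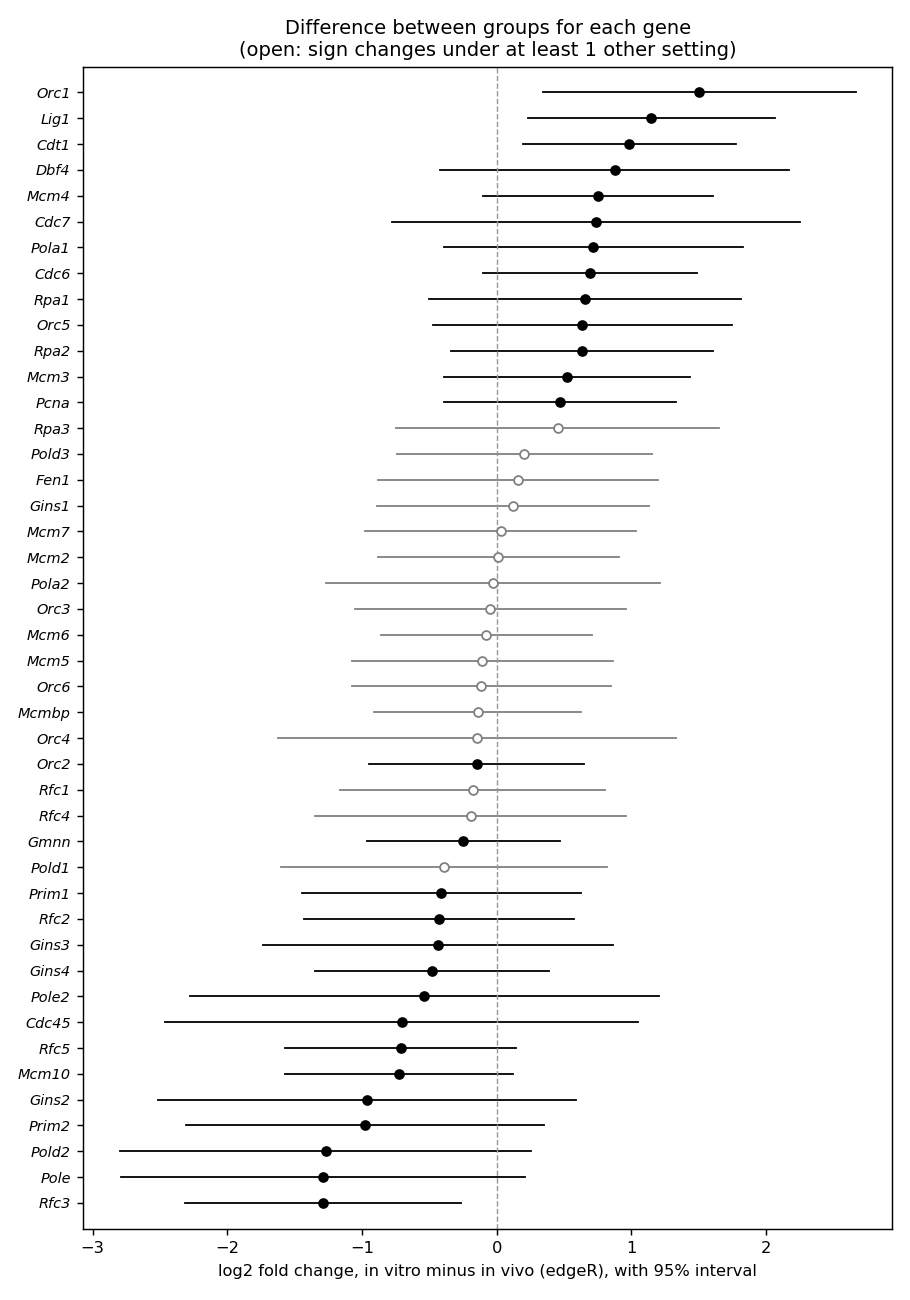
Log2 fold change (in vitro over in vivo) with its 95% interval from the edgeR fit, for the 44 genes in order of size; open grey points mark the 16 genes whose sign changed under at least 1 other fit. The values run from 1.50 for Orc1 to −1.29 for Rfc3, and the interval lies wholly to one side of 0 only for Orc1, Lig1, Cdt1 and Rfc3.

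ORC, the 6-subunit complex that marks origins, had no common sign: of its 6 genes, 2 kept a positive value over all fits (Orc1 and Orc5), 1 a negative one (Orc2), and Orc3, Orc4 and Orc6 changed sign. Orc1, the largest subunit and the one regulated through the cell cycle, is on the plus strand of chromosome 4 (108575705 to 108616030, GRCm38). It had 17.9, 14.8 and 7.48 CPM in vivo, against 23.2, 37.1 and 53.7 in vitro. All 3 in vitro libraries were above the 3 in vivo libraries, with in vivo replicate 3 lowest and in vitro replicate 3 highest. The means were 13.4 ± 5.35 and 38.0 ± 15.3 CPM (SD, n = 3 each). The log2 fold change was 1.50 ± 0.51 (SE; 95% interval 0.34 to 2.66), and edgeR's adjusted p was 0.409. The other subunits spread within groups: Orc4 was at 5.97 CPM in in vitro replicate 1 and at 27.9 to 53.7 CPM in the other 5 libraries, and Orc5 was at 13.0 CPM in in vivo replicate 3 and at 32.1 to 59.4 CPM elsewhere. The value of Orc5, 0.63 ± 0.49 (SE), became 0.28 when in vivo replicate 3 was left out and 0.42 when in vitro replicate 1 was. Orc2 had the lowest coefficient of variation of the 44 genes, with 28.7 to 41.5 CPM over the 6 libraries. Per kilobase, Orc6, the smallest subunit, exceeded Orc1 by a ratio of 24.8, 18.2 and 53.0 in vivo and 8.84, 7.49 and 10.1 in vitro. This ratio, which library scaling does not touch, did not overlap between groups, but it is formed from Orc1, whose groups lay apart already. Its size depends on the lengths in the file, 1654 bases for Orc6 and 8141 for Orc1, and is uncertain. By mean CPM, without lengths, Orc6 had 75.1 in vivo and 69.4 in vitro, against 13.4 and 38.0 for Orc1.

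The licensing factors Cdc6 and Cdt1 lay apart between groups and Gmnn, the inhibitor of Cdt1, did not. Cdt1, the loader of the MCM ring, is on the plus strand of chromosome 8 (122568015 to 122573130, GRCm38). It had 92.9, 67.5 and 49.2 CPM in vivo, against 154, 106 and 154 in vitro. Every in vitro library was above every in vivo library, the nearest being in vivo replicate 1 and in vitro replicate 2. The means were 69.8 ± 21.9 and 138 ± 27.7 CPM (SD, n = 3 each), a log2 fold change of 0.98 ± 0.35 (SE; 95% interval 0.19 to 1.77) with an edgeR adjusted p of 0.415. With library totals alone the log2 fold change of Cdt1 was 0.56.

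Cdc6, the ATPase that works with ORC, is on the plus strand of chromosome 11 (98907709 to 98923942). It had 34.4, 26.3 and 39.5 CPM in vivo, against 61.1, 44.4 and 56.6 in vitro. The gap between the highest in vivo and the lowest in vitro library was small beside the spread within groups. Its log2 fold change was 0.69 ± 0.35 (SE) with an edgeR adjusted p of 0.539, and the groups overlapped once the counts of its pseudogene were added. Gmnn, on the minus strand of chromosome 13 (24751845 to 24761937), had 99.1, 104 and 65.4 CPM in vivo, against 77.6, 71.3 and 77.5 in vitro. The in vitro values lay between those of the in vivo libraries, and the log2 fold change was −0.25 ± 0.32 (SE; 95% interval −0.97 to 0.47). It became −0.13 when in vivo replicate 2 was left out and −0.42 when in vivo replicate 3 was.

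Read per kilobase within each library, Gmnn exceeded Cdt1 in vivo by 2.02, 2.92 and 2.51 times. In vitro the ratio was 0.951, 1.27 and 0.953. The groups did not overlap, and since both genes are read in the same library, the ratio is free of library scaling. It was formed from Cdt1, whose groups lay apart already, and is given as a description.

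**Figure D3:**
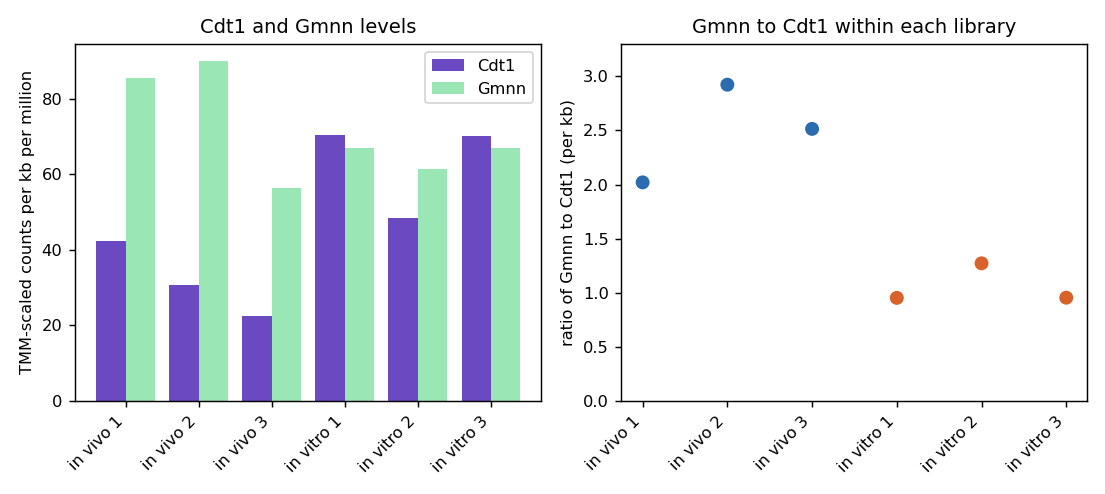
Left, levels of Cdt1 (purple) and Gmnn (green) in each library, in TMM-scaled RPKM, from 0; right, the ratio of Gmnn to Cdt1 in each library. The ratio is 2.02 to 2.92 in the 3 in vivo libraries and 0.951 to 1.27 in the 3 in vitro libraries.

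The MCM2 to MCM7 subunits form a ring with 1 copy of each, but their RNAs were not in equal amounts and did not vary together. Mcm2 had 100.2, 67.5 and 39.4 CPM in vivo, against 57.6, 74.1 and 77.1 in vitro. Mcm3 had 61.1, 35.4 and 41.2 CPM in vivo, against 49.2, 96.4 and 51.8 in vitro. Mcm4 had 106, 72.2 and 50.3 CPM in vivo, against 163, 129 and 93.7 in vitro. For these 3 subunits the groups overlapped, Mcm4 only through in vivo replicate 1 and in vitro replicate 3. Mcm5 had 91.1, 75.2 and 138 CPM in vivo, against 69.7, 151 and 61.6 in vitro. Mcm6 had 116, 71.7 and 156 CPM in vivo, against 109, 105 and 112 in vitro. Mcm7 had 47.6, 34.2 and 91.2 CPM in vivo, against 39.3, 70.4 and 66.7 in vitro. These 3 subunits were each highest in vivo in replicate 3, the library in which Mcm2 and Mcm4 were lowest.

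Of the 6 subunits, Mcm3 and Mcm4 kept a positive value over all fits and the other 4 changed sign. Mcm4 had the log2 fold change farthest from 0, 0.75 ± 0.38 (SE; 95% interval −0.10 to 1.61), with an edgeR adjusted p of 0.539. The value of Mcm3, 0.52, became 0.12 without in vitro replicate 2. For Mcm6 the 95% interval of the log2 fold change was −0.86 to 0.71. Per kilobase, the subunits summed to 147, 100.3 and 143 RPKM in vivo and 136, 179 and 130 RPKM in vitro. The highest subunit exceeded the lowest by 1.98, 1.99 and 3.38 times in vivo and 3.66, 1.96 and 1.53 times in vitro. The highest was Mcm2, Mcm5 and Mcm5 in in vivo replicates 1, 2 and 3, and Mcm4, Mcm5 and Mcm4 in in vitro replicates 1, 2 and 3. By the counts of these genes alone, no single subunit was the scarcest or the most abundant in every library. Mcm7 was counted without its pseudogene Gm5487, described below, which held 25.8% to 66.0% of their summed counts. The place of Mcm7 in this order is therefore uncertain, as are the sums and the ratios of highest to lowest.

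**Figure D4:**
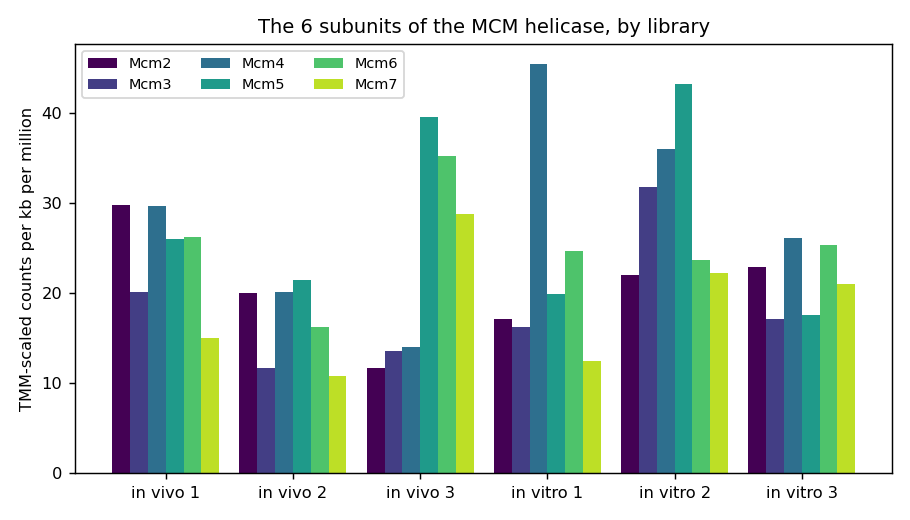
Levels of the 6 MCM subunit genes in each library, in TMM-scaled RPKM, with bars from 0. Mcm5, Mcm6 and Mcm7 stand above the other subunits in in vivo replicate 3, and Mcm4 stands alone at the top in in vitro replicate 1. Mcm7 is drawn without the counts of its pseudogene.

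Mcm10, which helps start the helicase and recruits polymerase alpha, had lower values in vitro. It had 58.0, 55.6 and 84.9 CPM in vivo, against 28.6, 52.5 and 39.0 in vitro. The groups did not overlap, although in vivo replicate 2 and in vitro replicate 2 were close. The log2 fold change was −0.72 ± 0.37 (SE) with an edgeR adjusted p of 0.548. Mcmbp, a binding partner of the MCM subunits, ranged from 67.5 to 118 CPM with overlapping groups. The ratio of Mcm10 to Mcm2 per kilobase was 0.495, 0.704 and 1.84 in vivo and 0.425, 0.605 and 0.432 in vitro, with overlap.

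Both genes of the kinase that triggers firing had positive log2 fold changes with wide intervals. Cdc7, the catalytic subunit, ranged from 5.97 CPM in in vivo replicate 3 to 68.1 CPM in in vitro replicate 3, the widest range over libraries of the 44 genes. Dbf4, its activator, ranged from 11.0 CPM in in vivo replicate 3 to 87.1 CPM in in vitro replicate 1. Their log2 fold changes were 0.74 ± 0.67 and 0.87 ± 0.57 (SE), and in both the groups overlapped. Cdc7 became 0.19 when in vitro replicate 3 was left out, 0.28 when in vivo replicate 3 was, and 1.14 when in vivo replicate 1 was. Dbf4 became 0.38 when in vitro replicate 1 was left out, 0.48 when in vivo replicate 3 was, and 1.35 when in vivo replicate 2 was. The ratio of Cdc7 to Dbf4 per kilobase went from 0.215 in in vitro replicate 1 to 1.38 in in vitro replicate 3, so the cultured libraries spanned all in vivo values.

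Of the 5 genes of the partners that complete the active helicase, 4 kept a negative value over all fits, again with wide intervals. Cdc45 had 20.7, 10.7 and 3.52 CPM in vivo, against 4.39, 9.85 and 7.06 in vitro. The in vivo libraries bracketed all in vitro ones, and the log2 fold change was −0.71 ± 0.78 (SE). It became −0.019 when in vivo replicate 1 was left out, −0.45 when in vitro replicate 1 was, and −1.13 when in vivo replicate 3 was. The GINS genes Gins2, Gins3 and Gins4 had log2 fold changes of −0.97 ± 0.69, −0.43 ± 0.58 and −0.48 ± 0.39 (SE). Each of these 3 was highest in in vivo replicate 1, and without that library they became −0.27, −0.12 and −0.32. Gins3 was −0.29 when in vitro replicate 2 was left out and −0.70 when in vitro replicate 3 was. Gins2 is counted with a caveat: 11.4% of its exon length lies opposite exons of Gse1, and strand was not marked. Gins1 shares 24.5% of its exon length with a predicted gene that had 0 counts, and reads matching both genes may be missing from Gins1.

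Polymerase alpha and its primase lay the first stretch of each new strand, and their 4 genes were low, with means of 2.99 to 12.6 RPKM. Prim2, the large primase subunit, had a log2 fold change of −0.98 ± 0.59 (SE), and Prim1, the catalytic one, −0.41 ± 0.46 (SE), which became −0.18 without in vivo replicate 1. Pola1, the catalytic polymerase subunit, is on the X chromosome and had 0.72 ± 0.49 (SE). It was highest, at 28.7 CPM, in in vitro replicate 2, the library with 7494 counts of Xist against 8 to 341 in the other 5. Pola1 ranged from 11.1 to 23.3 CPM in the other 5 libraries, over which its log2 fold change was 0.47. The part of X chromosome number in this value was not tested.

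Among the 5 genes of polymerases delta and epsilon, Pold2, Pole and Pole2 kept a negative value over all fits. Pold2, the regulatory subunit of polymerase delta, is on the minus strand of chromosome 11 (5872180 to 5878256). It had 15.8, 9.86 and 15.0 CPM in vivo, against 3.16, 4.41 and 9.28 in vitro. The groups lay just apart, since in vivo replicate 2 and in vitro replicate 3 nearly met. The log2 fold change of Pold2 was −1.27 ± 0.68 (SE; 95% interval −2.80 to 0.25) with an edgeR adjusted p of 0.560. Pole, the catalytic subunit of the leading-strand polymerase, was at 84.7 CPM in in vivo replicate 3 and at 7.90 to 25.3 CPM in the other 5 libraries. Its log2 fold change of −1.29 ± 0.66 (SE) became −0.31 without that library. Pole2, another epsilon subunit, had −0.54 ± 0.77 (SE), which became −0.18 when in vitro replicate 1 was left out and −0.86 when in vitro replicate 2 was.

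The sliding clamp gene had overlapping groups, and of its loader 2 genes lay apart. Pcna, the clamp, is on the minus strand of chromosome 2 (132249286 to 132253180). It had 83.6, 52.8 and 49.4 CPM in vivo, against 121, 68.7 and 67.3 in vitro. The groups overlapped through in vivo replicate 1, and the log2 fold change was 0.47 ± 0.38 (SE), which became 0.14 when in vitro replicate 1 was left out and 0.73 when in vivo replicate 1 was. Of the 5 genes of replication factor C, which opens the clamp onto DNA, Rfc2, Rfc3 and Rfc5 kept a negative value over all fits and Rfc1 and Rfc4 changed sign. Rfc2 had −0.43 ± 0.44 (SE), which became −0.063 when in vivo replicate 3 was left out, −0.14 when in vitro replicate 1 was, and −0.72 when in vitro replicate 3 was. Rfc3, on the minus strand of chromosome 5 (151642817 to 151651208), had 36.2, 28.3 and 47.9 CPM in vivo, against 15.8, 20.2 and 9.80 in vitro. All 3 in vitro libraries were below the 3 in vivo libraries. The means were 37.5 ± 9.85 and 15.3 ± 5.22 CPM (SD, n = 3 each), and the log2 fold change was −1.29 ± 0.46 (SE; 95% interval −2.32 to −0.27) with an edgeR adjusted p of 0.415. With library totals alone it was −1.52.

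Rfc5, also on the minus strand of chromosome 5 (117379145 to 117389023), had 29.8, 36.4 and 36.2 CPM in vivo, against 22.0, 22.0 and 18.6 in vitro. Both groups were tight and apart, with a log2 fold change of −0.71 ± 0.38 (SE) and an edgeR adjusted p of 0.562. Rfc4 shares 13.2% of its exon length with the opposite strand of Eif4a2, a translation factor gene with 15484 counts over the 6 libraries. The Rfc4 values of 14.7 to 32.0 CPM may hold reads of Eif4a2, or may lack reads that matched both genes. How such reads were counted was not given in the sources used here.

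RPA, the 3-subunit complex that coats single strands, had positive values for Rpa1 (0.65 ± 0.51) and Rpa2 (0.63 ± 0.43; log2 fold change with SE) over all fits, whereas Rpa3 changed sign. Rpa1 became 0.31 when in vivo replicate 3 was left out and 1.31 when in vivo replicate 1 was. Rpa2 became 0.15 when in vitro replicate 1 was left out and 0.95 when in vitro replicate 3 was. Rpa2 was at 145 CPM in in vitro replicate 1 and Rpa3 at 54.4 CPM in in vitro replicate 3, each well above the other libraries. Fen1, the nuclease that trims Okazaki fragments, changed sign between fits. Lig1, the ligase that seals them, is on the plus strand of chromosome 7 (13277175 to 13311426). It had 47.5, 28.8 and 49.5 CPM in vivo, against 137, 78.8 and 63.4 in vitro. Every in vitro library was above every in vivo library, with in vitro replicate 1 farthest. The means were 41.9 ± 11.4 and 93.0 ± 38.6 CPM (SD, n = 3 each), and the log2 fold change was 1.15 ± 0.41 (SE; 95% interval 0.23 to 2.06) with an edgeR adjusted p of 0.415. Without in vitro replicate 1 it was 0.77, and with library totals alone 0.83.

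Several of these genes have processed pseudogenes, copies of the spliced RNA placed elsewhere in the genome. Each coding sequence was compared with the GENCODE transcripts of GRCm38, and 7 of the 44 genes had a copy of at least 90% identity over at least 200 bases. For 6 of these the copy is a processed pseudogene, and for Pole2 it is a transcript under another name that is annotated for nonsense-mediated decay. For 5 of the pseudogenes the count table has a row. The closest full-length one is Pcna-ps2, on chromosome 19, which matched Pcna over 781 coding bases with 6 differences and had a longest identical run of 246 bases. The stretch of coding bases 88 to 177 holds 2 of the 6 differences, in capitals, and shows how few positions tell the copies apart in a short read.
Pcna: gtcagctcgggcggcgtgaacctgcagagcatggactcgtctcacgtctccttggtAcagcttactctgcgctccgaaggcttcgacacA
Pcna-ps2: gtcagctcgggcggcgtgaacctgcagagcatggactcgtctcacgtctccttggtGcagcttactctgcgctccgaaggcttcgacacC

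In the deposited table Pcna-ps2 held more counts than Pcna in 5 of the 6 libraries. Its share of the counts of the pair was 66.2%, 68.4% and 53.6% in vivo and 49.0%, 58.2% and 63.8% in vitro. Whether these reads come from the pseudogene or from Pcna itself cannot be read from the counts, and the sources used here do not say how reads with several matches were counted. Pcna alone is therefore uncertain. With both summed, the libraries held 247, 167 and 107 CPM in vivo, against 238, 164 and 186 in vitro, with overlap and a log2 fold change of 0.17 ± 0.37 (SE).

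The copy of Cdc6, Gm9430 (95.2% identity over 1527 bases), had 18.6, 11.9 and 7.19 CPM in vivo, against 1.93, 3.45 and 0.392 in vitro. It held 35.1%, 31.2% and 15.4% of the counts of the pair in vivo and 3.06%, 7.22% and 0.688% in vitro. The pseudogene lay lower in vitro (edgeR adjusted p of 0.415) where Cdc6 lay higher, and the sum of both overlapped between groups, with a log2 fold change of 0.28 ± 0.33 (SE) and an edgeR adjusted p of 0.816. The copy of Rfc5, Gm12870 (96.2% over 1020 bases), had 40.1, 36.3 and 4.24 CPM in vivo, against 8.43, 5.14 and 1.57 in vitro. The groups of this copy overlapped through in vivo replicate 3. Summed with it, Rfc5 had 69.9, 72.7 and 40.4 CPM in vivo, against 30.4, 27.1 and 20.1 in vitro. The groups stayed apart, with a log2 fold change of −1.24 ± 0.39 (SE) and an edgeR adjusted p of 0.389.

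The copy of Mcm7, Gm5487 (97.7% over 2157 bases), took 33.5% to 66.0% of the counts of its pair in vivo and 25.8% to 42.2% in vitro. The copy of Rpa3, Gm6195 (94.0% over 365 bases), took 50.9% to 63.7% in vivo and 21.6% to 58.3% in vitro. In all 5 pairs the lowest share of the pseudogene was in an in vitro library, and for Cdc6 alone of the 5 the shares of the groups did not overlap.

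**Figure D5:**
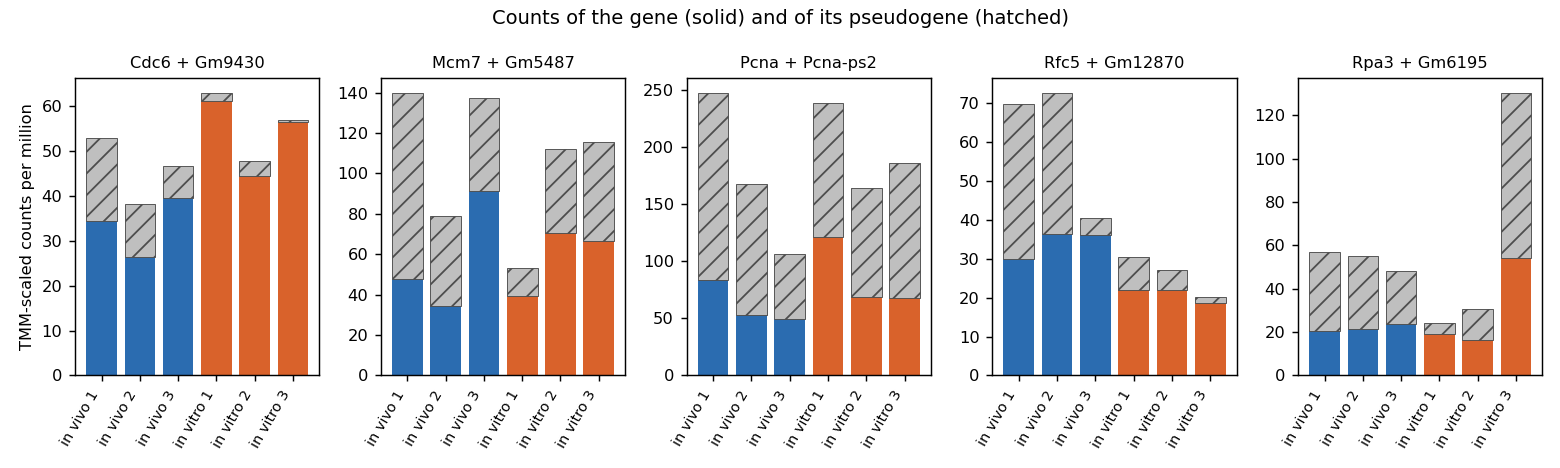
TMM-scaled CPM of 5 replication genes (solid, blue in vivo and orange in vitro) with those of their pseudogenes stacked on top (grey, hatched), per library, from 0. The hatched part of Cdc6 is large in vivo and nearly gone in vitro, and the stacked totals of Cdc6 overlap between groups.

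Promoter letters were searched because many of these genes are textbook targets of E2F factors. RefSeq windows on GRCm38.p6, from 250 bases before to 50 after an annotated start, were matched for 36 of the 44 genes. At least 1 of the E2F-like strings TTCCCGC or TTCGCGC or TTGGCGC or TTGCCGC stood on either strand in 24 of the 36 (66.7%), where 20.0% of the 9263 tested genes with a window and 10.9% of all 27025 genes with a window had one. The strings can overlap each other and also GGGCGG, which was found in 77.8% of the 36 and 67.6% of the tested genes. CCAAT was found in 58.3% and 43.8%, and TTTGAA in 19.4% and 14.7%. A match is a description of letters, not a site. For each of the 4 genes with in vitro libraries apart above, and for Rfc3 from the 4 apart below, 1 match is shown on the strand of the gene with the match in capitals, and 1 match each of Mcm5 and Mcm6 is shown because their groups overlapped. Cdt1, Lig1, Rfc3, Mcm5 and Mcm6 have further matches that are not shown.
Orc1, chr4:108579417-108579443, plus strand: tcggttagtgGCGCGAAaagttttctc
Cdc6, chr11:98908003-98908029, plus strand: ccggtggagaGCGGGAAatcgcctggg
Cdt1, chr8:122568023-122568049, plus strand: cgcggaatccGCGGGAActaccttttt
Lig1, chr7:13278842-13278868, plus strand: gccaaagtgcGCGCGAAatctgtgtgg
Rfc3, chr5:151651209-151651227, minus strand: gtcgcacgctTTCGCGCtc
Mcm5, chr8:75109337-75109383, plus strand: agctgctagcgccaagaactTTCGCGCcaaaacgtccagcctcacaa
Mcm6, chr1:128359725-128359771, minus strand: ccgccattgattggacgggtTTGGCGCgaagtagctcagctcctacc

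All 4 genes apart above had such a string, as did 1 of the 4 apart below and 19 of the 28 with overlapping groups and a window. The counts are too small to set one pattern apart from another, and no test was made. The windows of Mcm5 and Mcm6 hold the same kind of string as those of Orc1 and Cdt1, and their expression did not separate the groups.

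Genes of replication outside the 44 were examined from a list by role. Of 32 genes for origin firing, fork protection, further polymerase and clamp loader subunits, nucleases, topoisomerases and chromatin assembly, 30 passed the filter. Their median log2 fold change was −0.10, with 12 positive and 18 negative values, and 0 passed edgeR's test after adjustment. Asf1a, a histone chaperone at the fork, was the 1 gene of the 30 with an unadjusted p below 0.05 by edgeR, where 10.2% of all genes tested had one. It had 12.7, 27.2 and 3.09 CPM in vivo, against 2.46, 4.85 and 2.61 in vitro, with overlap through in vivo replicate 3. In 3 of the 30 genes, and in 10% of all genes tested, every in vitro library lay below every in vivo library. In 0 of the 30, and in 9.27% of all genes tested, every one lay above. Pole3, a small subunit of polymerase epsilon, had 39.1, 40.1 and 59.2 CPM in vivo, against 29.3, 27.8 and 15.3 in vitro. Rnaseh2a, the catalytic subunit of the enzyme that removes RNA from DNA, had 15.5, 15.7 and 21.1 CPM in vivo, against 4.04, 10.7 and 6.01 in vitro. The third was Rnaseh2c, a partner of Rnaseh2a, with 18.6, 15.5 and 12.7 CPM in vivo, against 1.76, 7.79 and 11.0 in vitro. By edgeR's unadjusted p, Topbp1 and Top2a came before Rnaseh2c, and both had positive values. Their log2 fold changes were 0.75 ± 0.38 and 0.62 ± 0.37 (SE), with overlapping groups.

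Of 29 regulators of the step from G1 to S phase, 27 passed the filter, with a median log2 fold change of 0.02, 14 positive and 13 negative values and 0 adjusted calls by edgeR. In 2 of the 27 every in vitro library lay above every in vivo library (9.27% of all genes tested) and in 1 below (10%). Rbl1, the pocket protein p107, which holds E2F factors in check, had 8.47, 3.29 and 6.69 CPM in vivo, against 46.0, 10.5 and 24.8 in vitro. All 3 in vitro libraries were above, and the log2 fold change was 2.14 ± 0.68 (SE) with an edgeR adjusted p of 0.396. E2f3, an activating E2F factor, had 4.47, 2.24 and 0 CPM in vivo, against 19.3, 12.3 and 17.6 in vitro, where a count of 0 in in vivo replicate 3 allows up to 0.216 CPM. E2f3 was thus higher in every in vitro library too, with an edgeR adjusted p of 0.484. Ccne2, an E-type cyclin named here after its values were seen, was the 1 below, with 5.10, 3.77 and 5.32 CPM in vivo, against 1.41, 1.62 and 2.09 in vitro. Its log2 fold change was −1.47 ± 0.99 (SE), with an edgeR adjusted p of 0.651. Groups overlapped for the other E-type cyclin Ccne1 (log2 fold change −0.51 ± 0.53), the A-type cyclin Ccna2 (0.42 ± 0.37), their kinase Cdk2 (0.04 ± 0.37) and the transcription factor E2f1 (0.87 ± 0.56; all with SE).

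The median spread of the 44 genes between libraries was below that of all genes in their range of level, given here as a description. The 44 genes had a median coefficient of variation over the 6 libraries of 0.386, against 0.559 for all genes tested. It was 0.474 for the 8497 genes within the same range of mean CPM (6.90 to 112), which were not matched in level to the 44 within that range. Their median standard error of the log2 fold change was 0.45, against 0.71 and 0.56 for those sets. Among the 44, the coefficient ran from 0.119 for Orc2 to 0.913 for Pole. In vivo replicate 3 held the lowest value for 16 of the 44 genes (36.4%), Cdc7, Gins2 and Cdc45 among them, where it was lowest for 25.8% of all genes tested. It also held the highest value for 10 of them (22.7%, against 20.8% of all genes), Pole, Mcm6 and Mcm7 included. In vitro replicate 1, the shallowest library, held the highest value for 10 genes and the lowest for another 10. Each is 22.7% of the 44, against 20.4% and 23.5% of all genes. In vivo replicate 1 was lowest for 2 (4.55%, against 10.4% of all genes), Orc3 and Pola1.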

How the data were processed

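RNA was extracted with a microscale total RNA kit and libraries were made with a transposase-based kit, per the labels' protocols. What the authors deposited is a single table of unnormalized counts, genes in rows with coordinates and lengths, and libraries in columns. FastQC 0.11.2, DESeq2 and the build GRCm39 appear in the submitters' processing notes, while aligner, counter, annotation and strand setting were not given in the sources used here. Coordinates in the table are identical to RefSeq GRCm38.p6 for all 45 genes compared (the 44 genes and Pcna-ps2), so GRCm38 is used here.

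The deposited counts were analysed with edgeR 4.0.16 in R 4.3.3: filterByExpr by group (14301 genes kept), TMM scaling, robust dispersion moderation and the quasi-likelihood F-test (two-sided, legacy form). P-values were adjusted by Benjamini-Hochberg over every gene tested, and 0.05 was the threshold. Libraries were grouped by their titles. Standard errors and 95% intervals were derived from the F statistic. Correlations used log2 CPM with a prior count of 2. The same comparison was fitted with DESeq2 1.42.0 and with limma-voom under quality weights (limma 3.58.1). Each test was checked on simulated counts first. Recovery of known changes was required only at a dispersion of 0.05. These data are more variable, with a common biological coefficient of variation (the square root of dispersion) of 0.727. At their dispersion only the sign of the calls was required to be right, so the check does not give the power of the tests here. Copies were searched with blastn 2.17.0, using the longest open reading frame of each gene's GENCODE transcripts. Without molecular identifiers PCR copies count as reads, so the floor of 3 counts covers counting error only. Promoter windows were credited to RefSeq and matched by symbol, with 8 genes unmatched.

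The 44 genes and the other gene lists were chosen with earlier results of these data known. Of the 44, values in every library were printed for genes with an unadjusted p below 0.05, with groups that do not overlap or with a DESeq2 or limma-voom call, for Mcm2 to Mcm7, Cdt1, Gmnn, Cdc6 and Pcna, and for the genes of highest and lowest mean RPKM. From the other lists together, up to 8 genes of smallest p could be named, plus Ccne1, Ccna2, Cdk2 and E2f1. Alternatives were other scalings, filters and tools, removal of ribosomal RNA genes, the replicate number as a block, each library left out and, added after seeing the data, counts summed with pseudogenes. No protein sequences were used here.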

Additional observations from a re-analysis of the deposited data

How the results depend on the processing

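None of the 44 genes passed the adjusted threshold of 0.05 under any of the 17 alternatives, edgeR, DESeq2 and limma-voom included. Calls over all genes were 0 in the edgeR fit reported, 391 with no filter on low counts, 459 by DESeq2, 102 by limma-voom, 3 by edgeR in its non-legacy form, and 0 with each library left out. With 1 library left out, 2 to 7 of the 44 genes (4.55% to 15.9%) had an unadjusted p below 0.05, against 5.61% to 14.2% of all genes in the same fits and 4 of the 44 with all libraries. The median log2 fold change of the 44 genes ran from −0.10 to 0.036 with 1 library left out, and was positive only without in vitro replicate 1 (0.036). Genes whose groups do not overlap numbered 10 to 15 with 1 library left out, against 8 with all. As shares these are 22.7% to 34.1% of the 44, against 23.7% to 37.7% of all genes in the same fits, and 18.2% against 19.3% with all libraries. The 28 fold changes of stable sign were picked because their sign held in every fit, so the kept sign follows from that choice. In their 476 refits none passed the threshold, which repeats the result for all 44 genes. The lowest count of the 44 genes in any library was 14, and the precision of each value is also limited by 3 libraries a group.

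The groups share replicate numbers, but no label says that a number marks a shared litter, batch or day. Deviations of same-numbered libraries from their group means had correlations across genes of −0.099, 0.096 and −0.044 for numbers 1, 2 and 3. Between libraries of unlike number the correlations ran from −0.090 to 0.116. Values this small cannot settle whether libraries of one number share a litter, batch or day. With the replicate number as a block, 0 of the 44 genes passed, 5 had an unadjusted p below 0.05 and the median was −0.10, and 1161 genes in all had an unadjusted p below 0.05 against 1458 without the block.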
